A study of Homo sapiens with 8 samples.

Results

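The genes described here are the ZNF genes of human chromosome 19, examined for binding of NKRF (NF-kappa-B repressing factor, a nuclear protein known to silence some NF-kappa-B target genes). They were taken as all protein-coding genes of chromosome 19 in the RefSeq annotation whose symbol begins with ZNF. This gave 250 genes out of 1451 protein-coding genes on the chromosome and 20056 in the genome. The other 1201 protein-coding genes of chromosome 19 served as the comparison. Most genes of the family encode proteins with a row of C2H2 zinc fingers, each finger folding around a zinc ion and contacting DNA. Many carry a KRAB domain in front of the fingers, which recruits the corepressor TRIM28 and, through it, the histone methyltransferase SETDB1, so that the bound DNA is packed as heterochromatin. The family is known to have grown by tandem duplication, which left clusters of similar genes along chromosome 19, and many of its members silence transposable elements.

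NKRF was measured by ChIP-seq, in which DNA crosslinked to a protein is recovered with an antibody and sequenced. The cells were MDA-MB-231-P3, a highly metastatic derivative of MDA-MB-231, an established triple-negative breast cancer cell line. They received either control siRNA or siRNA that targets Uc003xsl.1, a long non-coding RNA that the study's title names as a decoy of NKRF, and the title gives the question of whether that RNA holds NKRF away from its targets. Each group had 2 NKRF libraries, and each library had its own peak list called against 1 of 4 input libraries. All libraries came from 1 subline, and nothing in the labels says that replicates were separate cultures. The level of Uc003xsl.1 itself and the identity of the cells were not checked, because the lists hold peak positions and not transcript levels.

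The lists rested on unequal data. They held 7444 and 902 peaks in control replicates 1 and 2 and 7577 and 4463 in si-Uc003xsl.1 replicates 1 and 2, from 19335431, 8250475, 18890698 and 11366267 tags. Control replicate 2 stood apart by its caller (MACS 2.1.1.20160309 at a q-value of 0.05, with 105-bp tags). The other 3 lists came from MACS 1.4.2 at a p-value of 0.0001 with 50-bp tags. In control replicate 1 the caller gave each peak an estimated false discovery rate of 100%, while at ZNF genes the rates ran from 27.65% to 32.31% in si-Uc003xsl.1 replicate 1 and from 9.95% to 26.55% in replicate 2. Chromosome 19 held 52 peaks (0.699%) and 8 peaks (0.887%) of the control lists and 252 (3.33%) and 193 (4.32%) of the si-Uc003xsl.1 lists. Caller, threshold, tag length and depth differ between the control libraries, so their part in the differences between groups cannot be told apart from the treatment.

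NKRF peaks lay at the ends of a few ZNF genes in the si-Uc003xsl.1 lists and of fewer in the control lists. A summit, the highest point of a peak, fell within 1 kb of either end of 4 ZNF genes (1.6%) in control replicate 1 and of none in control replicate 2. A count of 0 among 250 genes allows a share of up to 1.2%. In each si-Uc003xsl.1 list 10 ZNF genes (4.0%) had such a summit. The mean share was 0.8% ± 1.13 (SD, n = 2) in control cells and 4.0% ± 0 (SD, n = 2) in si-Uc003xsl.1 cells, a difference of 3.2 percentage points. The exact two-sided permutation test gave p = 0.333, the smallest value that 2 libraries against 2 allow.

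The ZNF shares have to be read beside those of the other genes of the chromosome. Of the other chromosome 19 protein-coding genes, 0.416% and 0.0833% had a summit within 1 kb of an end in control replicates 1 and 2, and 7.08% and 4.83% in si-Uc003xsl.1 replicates 1 and 2. Over all protein-coding genes of the genome the shares were 0.529%, 0.12%, 6.54% and 5.31%. The ZNF share was thus 1.18 percentage points above that of the other genes in control replicate 1. The difference from the other genes was -0.0833 points in control replicate 2, -3.08 points in si-Uc003xsl.1 replicate 1 and -0.829 points in replicate 2. The excess of ZNF genes over the other genes differed by -2.50 points between the si-Uc003xsl.1 and the control lists (exact permutation p = 0.333, n = 2 per group). In all lists but control replicate 1 the ZNF share within 1 kb was therefore at or below the background of the chromosome.

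**Figure D1:**
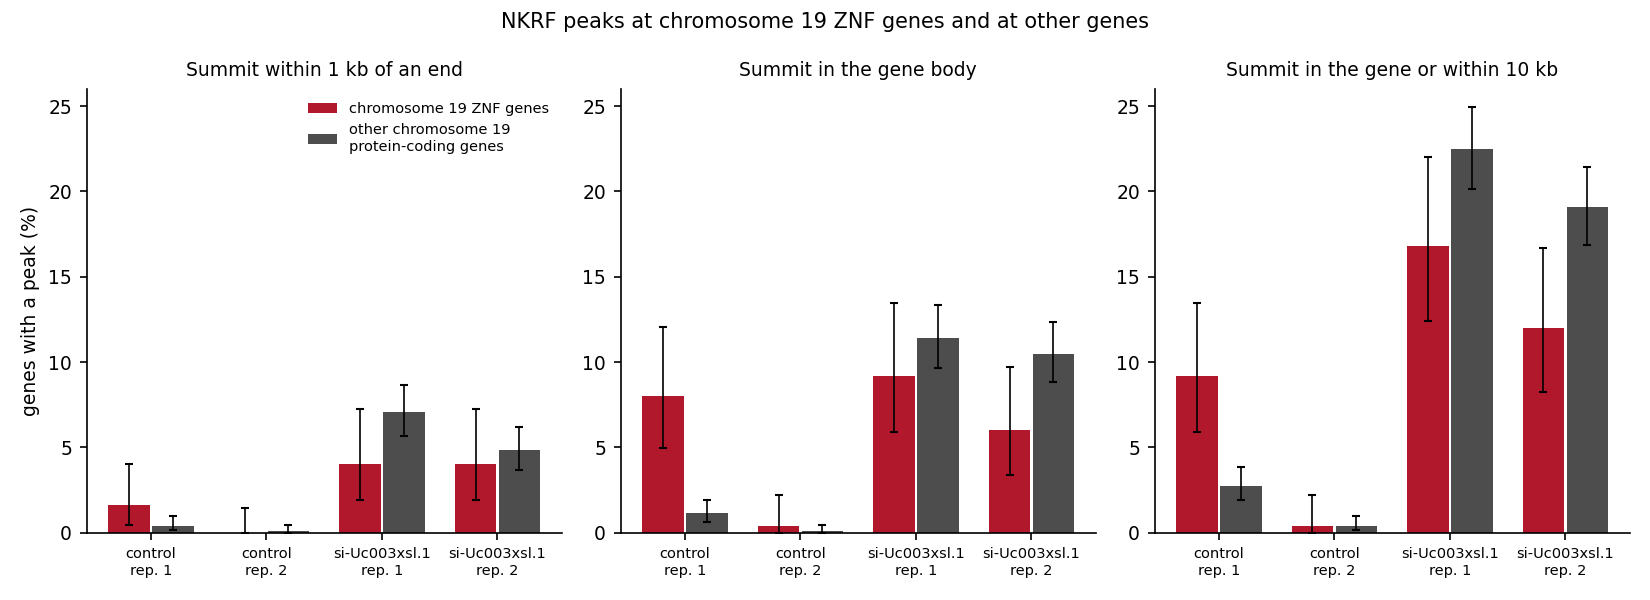
Share of genes with an NKRF summit (vertical axis, percent) in each of the 4 peak lists, for the 250 ZNF genes and the 1201 other protein-coding genes of chromosome 19, in 3 windows; bars start at 0 and lines are exact 95% binomial intervals, which cover counting error only. The ZNF bars stand above those of the other genes in control replicate 1 and below them in both si-Uc003xsl.1 lists, with wide intervals within 1 kb.

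The 4 ZNF genes with a summit within 1 kb of an end in control replicate 1 were ZNF563, ZNF320, ZNF888 and ZNF550. The peak at ZNF563 (12347088 to 12347223) held 6 tags over 136 bp, with its summit 205 bp inside the 5′ end and also inside the neighbouring ZNF442. ZNF320 and ZNF888 shared 1 peak of 7 tags over 120 bp (52903560 to 52903679), 684 bp inside the 5′ end of ZNF320 and 779 bp outside ZNF888. That peak had the highest -log10 p of the peaks at ZNF genes in its list (6.01) and a fold enrichment over input of 20.3. The peak at ZNF550 held 8 tags over 181 bp, the longest at any ZNF gene in that list, and lay 382 bp inside the 3′ end. All 3 peaks were thus narrow and close to the list's smallest tag number of 6.

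In si-Uc003xsl.1 replicate 1 the peaks at ZNF gene ends were wider and held more tags. The 10 genes were ZNF57, ZNF844, ZNF507, ZNF607, ZNF580, ZNF211, ZNF135, ZNF837, ZNF324 and ZNF446. The peak at ZNF446 (58475598 to 58476503) was the longest and deepest at any ZNF gene, with 50 tags over 906 bp and its summit 6 bp upstream of the 5′ end. The same peak lay 910 bp beyond the 3′ end of ZNF324. ZNF837 carried 41 tags over 701 bp (58380395 to 58381095), 326 bp inside its 5′ end. ZNF507 carried 29 tags over 596 bp (32345461 to 32346056), 246 bp inside its 5′ end, with the highest -log10 p at a ZNF gene in the list (6.75). These peaks sat over or beside the 5′ ends of their genes.

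Smaller peaks of the same list lay at ZNF844 (28 tags over 469 bp, 366 bp inside the 5′ end) and ZNF57 (26 tags over 477 bp, 273 bp inside the 5′ end). ZNF211 carried 25 tags over 338 bp, 155 bp from an end. ZNF580, ZNF135 and ZNF607 carried 19, 17 and 11 tags over 311, 322 and 262 bp. The nearer end was the 5′ end in ZNF135 and the 3′ end in ZNF580 and ZNF607. Of the 10 genes, 6 had the summit at the 5′ end, 3 at the 3′ end and 1 had no strand in the promoter table. ZNF580 is short, and its summit also lay 457 bp from a listed start site. At ZNF324 and ZNF607 the summit lay near the 3′ end, so that the count of genes is larger than the count of ZNF start regions with a peak.

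In si-Uc003xsl.1 replicate 2 the 10 genes were ZNF627, ZNF565, ZNF428, ZNF296, ZNF83, ZNF580, ZNF264, ZNF274, ZNF837 and ZNF446. ZNF428 had the longest peak at a ZNF gene in this list, 552 bp with 28 tags (43619341 to 43619892), 69 bp upstream of its 5′ end. ZNF580 carried 27 tags over 457 bp, 239 bp inside its 5′ end. ZNF274, a KRAB zinc finger protein known to bring SETDB1 to the 3′ ends of other ZNF genes, carried 19 tags over 450 bp (58183389 to 58183838), 599 bp inside its 5′ end. The 2 deepest peaks of this list at ZNF genes were thus also at 5′ ends.

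The peak at ZNF446 in this list held 18 tags over 367 bp (58477195 to 58477561), 955 bp inside the 5′ end, with the highest -log10 p at a ZNF gene in the list (7.17). ZNF264 carried 17 tags over 369 bp, 174 bp inside its 5′ end, and ZNF296 carried 16 tags over 382 bp, 432 bp inside its 3′ end. ZNF83 and ZNF627 each carried 15 tags, over 230 and 343 bp, 464 and 383 bp inside their 5′ ends. ZNF837 carried 11 tags over 207 bp, 131 bp inside its 3′ end, and ZNF565 carried 9 tags over 233 bp, 313 bp upstream of its 5′ end. In all, 8 of the 10 genes had the summit at the 5′ end and 2 at the 3′ end. Among the other chromosome 19 genes with a known strand, the summit was at the 5′ end in 60 of 76 genes (78.9%) in si-Uc003xsl.1 replicate 1 and in 28 of 40 (70.0%) in replicate 2, so the 5′ share was not particular to ZNF genes by this count.

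A peak of a si-Uc003xsl.1 list overlapped the 250 bases before an annotated start site in 8 of these genes, and 6 are shown: the genes with the deepest or strongest peaks, ZNF57 with the most GC boxes and ZNF428 with none. They are RefSeq promoter sequences of GRCh38.p14, written 5′ to 3′ on the strand of the gene. Capitals mark the GC box, GGGCGG or its reverse complement CCGCCC, the site bound by SP1 and its relatives.
ZNF446 (chr19:58476102-58476351, plus strand): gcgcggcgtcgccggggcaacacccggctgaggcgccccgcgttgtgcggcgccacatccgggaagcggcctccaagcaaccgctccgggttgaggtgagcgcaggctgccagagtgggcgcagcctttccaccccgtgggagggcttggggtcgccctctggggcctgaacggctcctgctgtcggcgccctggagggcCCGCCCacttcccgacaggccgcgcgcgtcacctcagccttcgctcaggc
ZNF837 (chr19:58381031-58381280, minus strand): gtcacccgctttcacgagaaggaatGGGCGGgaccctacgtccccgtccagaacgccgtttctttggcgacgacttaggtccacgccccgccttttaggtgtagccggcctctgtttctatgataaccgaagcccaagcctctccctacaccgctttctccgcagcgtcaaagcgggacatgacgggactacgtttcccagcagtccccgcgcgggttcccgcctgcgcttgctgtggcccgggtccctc
ZNF507 (chr19:32345360-32345609, plus strand): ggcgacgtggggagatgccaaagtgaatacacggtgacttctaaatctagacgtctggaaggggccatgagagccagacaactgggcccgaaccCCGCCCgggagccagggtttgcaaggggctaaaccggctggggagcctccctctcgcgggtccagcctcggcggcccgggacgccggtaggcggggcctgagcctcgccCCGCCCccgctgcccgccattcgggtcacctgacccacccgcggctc
ZNF57 (chr19:2900678-2900927, plus strand): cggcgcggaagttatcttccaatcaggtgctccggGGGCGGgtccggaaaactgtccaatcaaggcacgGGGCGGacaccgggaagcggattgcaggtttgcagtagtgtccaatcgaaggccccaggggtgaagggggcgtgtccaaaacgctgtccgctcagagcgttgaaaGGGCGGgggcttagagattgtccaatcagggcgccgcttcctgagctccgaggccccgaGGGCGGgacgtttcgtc
ZNF264 (chr19:57191250-57191499, plus strand): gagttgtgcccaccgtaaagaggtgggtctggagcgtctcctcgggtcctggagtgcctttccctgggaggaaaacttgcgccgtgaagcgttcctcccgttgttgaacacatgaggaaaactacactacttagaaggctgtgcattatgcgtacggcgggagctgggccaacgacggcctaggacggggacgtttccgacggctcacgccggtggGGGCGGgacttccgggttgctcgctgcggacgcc
ZNF428 (chr19:43619630-43619879, minus strand): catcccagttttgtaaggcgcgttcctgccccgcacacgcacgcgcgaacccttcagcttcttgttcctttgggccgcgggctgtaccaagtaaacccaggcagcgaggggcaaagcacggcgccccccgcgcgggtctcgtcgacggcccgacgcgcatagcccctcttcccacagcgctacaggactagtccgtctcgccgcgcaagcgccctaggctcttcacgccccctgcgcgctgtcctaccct
The stretch upstream of ZNF57 held 4 GC boxes, that of ZNF507 held 2, those of ZNF446, ZNF837 and ZNF264 held 1 each, and that of ZNF428 held 0. The stretches of ZNF135 and ZNF565, which are not shown, held 1 each. The G+C content of the 6 ran from 62.0% in ZNF264 to 74.4% in ZNF446, and they held 23 to 30 CpG dinucleotides. The peak covered all 250 bases in ZNF446 and ZNF428, 149 in ZNF507, 77 in ZNF57, 71 in ZNF264 and 65 in ZNF837, since in the last 4 of these genes the summit lay downstream of the start.

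Promoters of 300 bases (250 before and 50 after the start) were listed for 219 of the 250 ZNF genes and 966 of the 1201 other genes. ZNF genes with a summit within 1 kb of an end in a si-Uc003xsl.1 list had CpG-rich promoters. In 16 such genes with a listed promoter the median was 29 CpG dinucleotides (16 to 37) and 65.2% G+C (59.0% to 73.3%). In the 203 ZNF genes without such a summit the medians were 20 CpG (2 to 49) and 59.0% G+C. The 2 ranges overlapped. The other chromosome 19 genes showed a difference of the same sign, with a median of 30 CpG and 68.5% G+C in 114 genes with such a summit beside 21 CpG and 64.0% in all 966. This is a description of the promoters and was not tested.

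**Figure D2:**
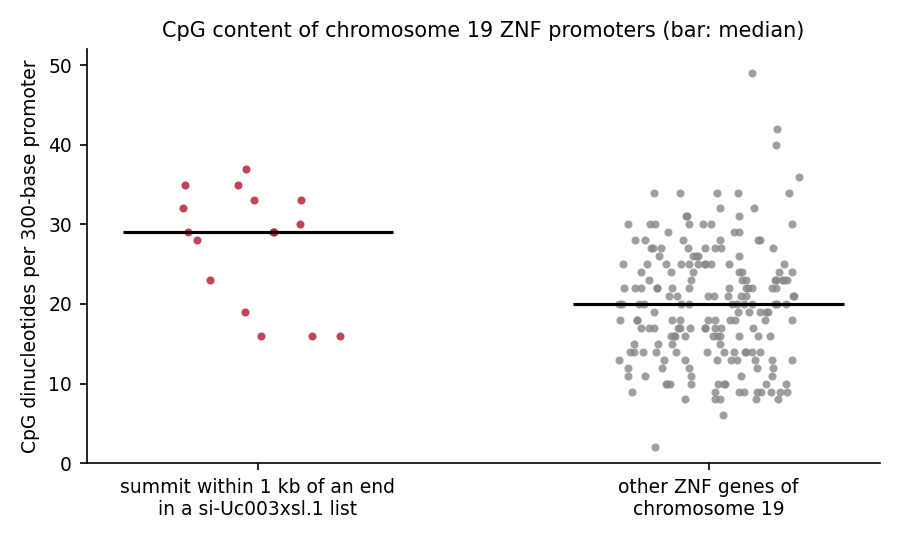
CpG dinucleotides in the 300-base promoter (vertical axis, count) of ZNF genes with a summit within 1 kb of an end in a si-Uc003xsl.1 list and of all other ZNF genes of chromosome 19; each point is a gene, its horizontal place within a group is random, and the bar is the median. The medians are 29 and 20, and the points of the smaller group lie within the range of the larger.

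A set of 4 letter patterns was searched on both strands of these promoters. The GC box GGGCGG was in 14 of the 16 promoters (87.5%), in 65.5% of the promoters of ZNF genes without such a summit and in 65.7% of those of the other genes. In the 114 other genes with such a summit it was in 78.1%, so a higher share in genes with such a summit was seen outside the ZNF genes too. The CCAAT box was in 31.3%, 55.7% and 37.4% of the same groups, and the ETS pattern CCGGAAG, bound by a family of activators that includes GABPA, in 25.0%, 46.8% and 12.8%. The 114 other genes with such a summit held the CCAAT box in 25.4% and the ETS pattern in 17.5%. A loose NF-kappa-B-type pattern (GGG, then 3 bases of any kind, then TTCC) was in none of the 16, in 9.36% and in 8.39%. The GC box can overlap other G-rich patterns, and a match is only the presence of these letters. ETS patterns were thus found in more of the ZNF promoters than of the other promoters, 45.2% of all 219 against 12.8% of 966. The promoters of the 16 ZNF genes with such a summit held them in a smaller share (4 promoters). Those of the 114 other genes with such a summit did not. A summit within 1 kb of either gene end need not lie near the promoter. In ZNF607, ZNF324 and ZNF296 it lay 22444, 9266 and 4546 bp from the nearest listed start site.

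Inside the genes the control and the si-Uc003xsl.1 lists differed in another way. The gene body held a summit in 20 ZNF genes (8.0%) in control replicate 1, in 1 (0.4%) in control replicate 2, in 23 (9.2%) in si-Uc003xsl.1 replicate 1 and in 15 (6.0%) in replicate 2. Among the other genes of chromosome 19 the shares were 1.17%, 0.0833%, 11.4% and 10.5%, and among all protein-coding genes of the genome 9.7%, 2.08%, 15.6% and 11.5%. The ZNF share was below that of the whole genome in all 4 lists, while in control replicate 1 the other chromosome 19 genes lay far below both. The ZNF share was therefore 6.83 and 0.317 percentage points above the other genes in control replicates 1 and 2. In si-Uc003xsl.1 replicates 1 and 2 the difference from them was -2.21 and -4.49 points. The excess differed by -6.92 points between the si-Uc003xsl.1 and the control lists (-3.35 ± 1.62 against 3.58 ± 4.61, SD, n = 2 each; exact permutation p = 0.333, the smallest possible). The 2 groups did not overlap, but the value of control replicate 2 rests on 1 ZNF gene and 1 other gene.

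The other gene bodies held few summits in control replicate 1, while the number per Mb in ZNF bodies lay between those of the si-Uc003xsl.1 lists. ZNF bodies, merged where they overlap, covered 7.11 Mb and the other bodies 24.7 Mb. In control replicate 1 ZNF bodies held 19 of the 52 chromosome 19 peaks, 36.5% (exact 95% interval 23.6% to 51.0%), while the other bodies held 12. In the si-Uc003xsl.1 lists ZNF bodies held 27 of 252 peaks, 10.7% (7.18% to 15.2%), and 14 of 193, 7.25% (4.02% to 11.9%). Per Mb, ZNF bodies held 2.67 summits in control replicate 1, 3.80 in si-Uc003xsl.1 replicate 1 and 1.97 in replicate 2. The other bodies held 0.487, 5.84 and 5.56. The ratio of ZNF to other bodies was thus 5.49 and 3.47 in the control lists (the second from 1 summit in each set) and 0.651 and 0.355 in the si-Uc003xsl.1 lists. The log2 of this ratio differed by -3.18 between the si-Uc003xsl.1 and the control lists (exact permutation p = 0.333, n = 2 per group). The summit density of the ZNF bodies themselves overlapped between control replicate 1 and the si-Uc003xsl.1 lists.

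The shares were also set side by side by gene length. The median ZNF gene spanned 23.3 kb and the median other gene 12.7 kb. Among genes above 22.6 kb, the longest of 3 classes, the body of 14 of 133 ZNF genes (10.5%) and of 11 of 351 other genes (3.13%) held a summit in control replicate 1. In si-Uc003xsl.1 replicate 1 the counts were 12 ZNF genes (9.02%) and 70 other genes (19.9%), and in replicate 2 they were 8 (6.02%) and 65 (18.5%). Among genes under 9.76 kb, the shortest class, the ZNF share was 3.85% (1 of 26) and that of the other genes 0.218% (1 of 458) in control replicate 1. In this class the ZNF share was 7.69% (2 of 26) in both si-Uc003xsl.1 lists, and the other genes had 7.42% and 4.80% (34 and 22 of 458). In the middle class ZNF genes had 5.49%, 9.89% and 5.49% in control replicate 1 and si-Uc003xsl.1 replicates 1 and 2, and the other genes 0.510%, 8.42% and 9.95%. In control replicate 1 the ZNF share was thus above that of the other genes in all 3 classes, in the shortest on 1 ZNF gene. In the si-Uc003xsl.1 lists it was below in the longest class and above in the shortest, there on 2 ZNF genes in each list. In the middle class it was above in replicate 1 and below in replicate 2. These differences within classes were not tested.

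The peaks in ZNF bodies of control replicate 1 were weak and narrow, but so were the others of that list on chromosome 19. Its 52 chromosome 19 peaks had medians of 6 tags and 131.5 bp, and those only in other gene bodies 6.5 tags and 137 bp. All 19 distinct peaks at ZNF genes lay only in ZNF gene bodies. They held 6 to 8 tags, 13 of them the smallest number of 6, over 83 to 181 bp with a median of 132 bp. Besides the genes named above they lay in ZNF90, ZNF529, ZNF568, ZNF420, ZNF585A, ZNF573, ZNF283, ZNF404, ZNF155, ZNF226, ZNF235, ZNF541, ZNF350, ZNF765 with its readthrough gene ZNF765-ZNF761, and ZNF772. ZNF226 held 2 peaks, and peaks within 10 kb added ZNF221 and ZNF549. ZNF350, known as a repressor that works with BRCA1, held 6 tags over 100 bp. ZNF573 held 8 tags over 136 bp, and ZNF155 held 7 tags over 133 bp with a -log10 p of 5.26. The only peak of control replicate 2 at a ZNF gene lay in ZNF681 (23744178 to 23744327), 150 bp long with a pileup of 9, a -log10 p of 10.7 and a -log10 q of 3.81.

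**Figure D3:**
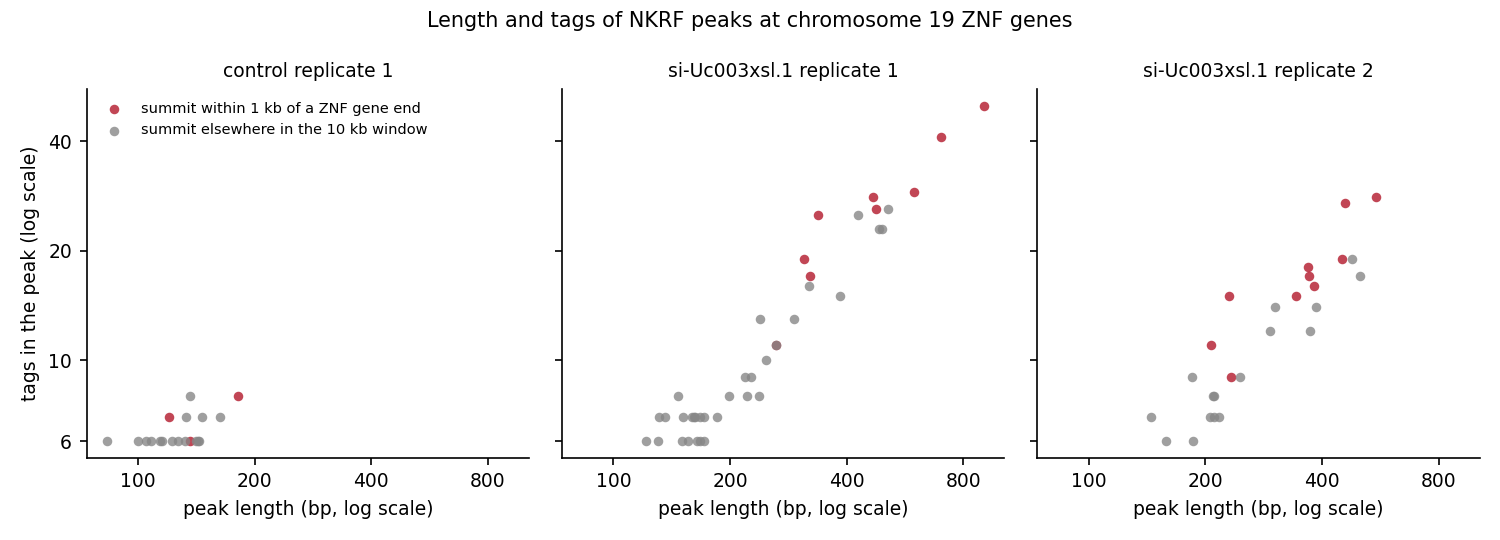
Tags (vertical axis, log scale) and length in bp (horizontal axis, log scale) of each distinct peak in or within 10 kb of a chromosome 19 ZNF gene, in the 3 lists that give tags; red points have a summit within 1 kb of a ZNF gene end. The peaks of control replicate 1 hold 6 to 8 tags and stay under 200 bp, and most red points of the si-Uc003xsl.1 lists lie at 10 tags or more.

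Along the gene, more summits of control replicate 1 lay toward the 3′ end than toward the 5′ end or in the middle. KRAB zinc finger genes usually encode their finger array in a long last exon, but exon and finger positions were not examined. Each gene with a known strand was divided into 3 equal parts, and 5 of 20 pairs of gene and summit were in the 5′ part, 4 in the middle part and 11 (55.0%) in the 3′ part. In si-Uc003xsl.1 replicate 1 the counts were 9, 6 and 9 of 24, and in replicate 2 they were 6, 5 and 4 of 15. Among the other genes the 3′ part held 5 of 10 summits in control replicate 1, 35 of 125 (28.0%) in si-Uc003xsl.1 replicate 1 and 39 of 113 (34.5%) in replicate 2. The share of control replicate 1 in the 3′ part was thus near that of other genes in the same list. No summit of control replicate 1 lay within 1 kb of a listed ZNF start site (0 of 18 peaks), while 7 of 39 did in si-Uc003xsl.1 replicate 1 and 9 of 25 in replicate 2. The median distance from a listed start was 16.1, 8.69 and 5.00 kb in the same order. Finger arrays are alike between paralogs, and how reads that map to several places were handled is not given in the sources used here.

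**Figure D4:**
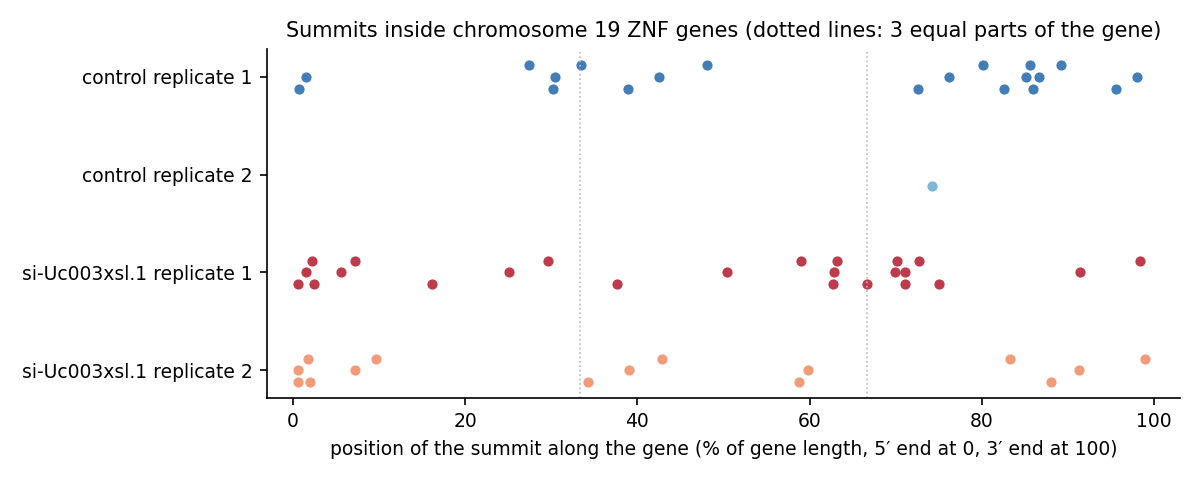
Position of each summit inside a chromosome 19 ZNF gene of known strand, in percent of the gene length from the 5′ end (0) to the 3′ end (100), for the 4 lists; each point is a pair of gene and summit, and dotted lines divide the gene into 3 equal parts. In control replicate 1, 11 of 20 points lie in the 3′ part, and in the si-Uc003xsl.1 lists points gather near the 5′ end and along the gene.

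With 10 kb on either side of the gene included, more ZNF genes had a summit, and the order against the other genes was kept in 3 of the 4 lists. The counts were 23 ZNF genes in control replicate 1 (9.2%, exact 95% interval 5.92% to 13.5%), 1 in control replicate 2 (0.4%), 42 in si-Uc003xsl.1 replicate 1 (16.8%, 12.4% to 22.0%) and 30 in replicate 2 (12%, 8.24% to 16.7%). The other genes of chromosome 19 gave 2.75%, 0.416%, 22.5% and 19.1%, and all protein-coding genes of the genome gave 11.8%, 2.58%, 23.0% and 17.2%. The mean ZNF share was 4.8% ± 6.22 (SD, n = 2) in the control lists and 14.4% ± 3.39 (SD, n = 2) in the si-Uc003xsl.1 lists, with an exact permutation p of 0.333. The excess over the other genes differed by -9.59 points between the si-Uc003xsl.1 and the control lists (exact permutation p = 0.333). The 268 ZNF genes of the other chromosomes gave 9.70%, 2.99%, 22.8% and 15.7%. In control replicate 1 ZNF genes on and off chromosome 19 thus had nearly the same share, both below the 11.8% of all protein-coding genes. The likeness was not tested and is not particular to ZNF genes by these shares.

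In the si-Uc003xsl.1 lists the peaks of this window were grouped by their place relative to the ZNF genes. Of 41 distinct peaks in replicate 1, 9 lay within 1 kb of a ZNF gene end, 20 deeper in the body and 12 in the flanks. Of 26 in replicate 2 the counts were 10, 6 and 10. The peaks within 1 kb had a median of 26 tags and 469 bp in replicate 1 and of 16.5 tags and 368 bp in replicate 2. All peaks of the window, those within 1 kb included, had medians of 9 tags and 227 bp and of 12 tags and 270 bp. In replicate 1, 9 of the 9 peaks near an end held at least 10 tags, beside 19 of all 41. At other genes the peaks within 1 kb had a median of 24.5 tags in replicate 1, beside 15 in the whole window. In replicate 2 these medians were 12 and 11 tags, closer together than those at ZNF genes, a difference that was not tested.

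Members of the window in si-Uc003xsl.1 replicate 1 with weak peaks in the gene body included ZNF555, ZNF44, ZNF14, ZNF726, ZNF283, ZNF534, ZNF543, ZNF749, ZNF773 and ZNF552, with 6 to 9 tags each. ZNF420 held 3 peaks of 13, 8 and 7 tags, and ZNF600 held 1 of 10 tags that also lay 1945 bp from ZNF28. ZNF665 held a peak of 7 tags over 131 bp with a -log10 p of 5.50 that also lay within 10 kb of ZNF347. Peaks outside the gene lay near ZNF69, ZNF564, ZNF682, ZNF254, ZNF599, ZNF574, ZNF628, ZNF470, ZNF71, ZNF134, ZNF541 and ZNF497. That near ZNF541 (25 tags over 428 bp) was closer to NAPA, with its summit 682 bp from an end of that gene. In 35 of the 41 peaks the nearest gene end was that of a ZNF gene.

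In si-Uc003xsl.1 replicate 2 the remaining body peaks lay in ZNF442 (7 tags), ZNF43 (9 tags), ZNF836 (6 tags), ZNF160 (7 tags) and ZNF787 (17 tags over 502 bp). The summit in ZNF43 lay 238 bp downstream of a listed start site inside the gene, although it was far from both gene ends. Peaks outside the gene lay near ZNF556, ZNF57, ZNF77, ZNF414, ZNF653, ZNF146, ZNF701, ZNF665, ZNF329, ZNF497 and ZNF324. The nearest gene end was that of a ZNF gene in 23 of the 26 peaks. Both si-Uc003xsl.1 lists thus held weak peaks away from ZNF ends, but not all peaks there were weak or narrow. At least 10 tags were held by 19 of 41 peaks in replicate 1 and 15 of 26 in replicate 2, of which 9 and 9 lay within 1 kb. A length of at least 300 bp was reached by 14 and 12 peaks, of which 8 and 7 lay within 1 kb.

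ZNF536, the longest gene of the family here (488 kb) and a known repressor of neuronal differentiation, held 3 summits in si-Uc003xsl.1 replicate 1 and 1 in its body and 1 just upstream in replicate 2. They held 6 to 8 tags, and the nearest pair from the 2 lists lay 49686 bp apart.

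Few ZNF genes were found in more than 1 list. In the 10 kb window 170 of the 250 genes were in none of the lists, 64 in 1 and 16 in 2, and none was in 3 or 4. Thus 32.0% of the ZNF genes were in at least 1 list, beside 38.9% of the other genes of the chromosome. ZNF91 and ZNF93, known to silence SVA and LINE-1 transposable elements and looked up after the values were seen, were in none. The si-Uc003xsl.1 lists shared 12 genes, which are 28.6% of the 42 in replicate 1 and 40.0% of the 30 in replicate 2. These were ZNF57, ZNF536, ZNF83, ZNF665, ZNF581, ZNF580, ZNF471, ZNF470-DT, ZNF497, ZNF837, ZNF324 and ZNF446. The neighbours ZNF581 and ZNF580, ZNF471 and ZNF470-DT, ZNF497 and ZNF837, and ZNF324 and ZNF446 shared peaks within each list. The 12 genes thus stand for fewer places, and such sharing was not counted among the other genes. The other genes of the chromosome shared 61, 22.6% and 26.6% of theirs. Control replicate 1 shared ZNF420, ZNF283 and ZNF541 with si-Uc003xsl.1 replicate 1 and ZNF442 with replicate 2. These are 4 of the 24 ZNF genes in a control list, beside 9 of the 38 other genes in a control list.

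A shared gene was seldom a shared peak. Only 1 pair of peaks from different lists overlapped at a ZNF gene, by 223 bp, at 56538740 to 56539250 (26 tags) and 56539028 to 56539329 (14 tags) in the si-Uc003xsl.1 lists. It lay within 10 kb of ZNF471 and ZNF470-DT and nearest to an end of ZFP28, a zinc finger gene outside the ZNF symbols. Summits of the 2 lists lay 961 bp apart at ZNF324 and ZNF446, 1024 bp apart at ZNF497 and ZNF837 and 1313 bp apart at ZNF580 and ZNF581. At ZNF57, ZNF83 and ZNF665 they lay 25783, 38898 and 28195 bp apart. Within 1 kb of an end the si-Uc003xsl.1 lists shared ZNF580, ZNF837 and ZNF446, 30.0% of the genes in each list, and no ZNF gene was shared with a control list. Only at ZNF446 was the summit at the same end, the 5′ end, in both lists. At ZNF580 and ZNF837 the summits were at opposite ends. The replicate 1 summit at ZNF837 in the pair 1024 bp apart lay 1155 bp from an end, outside this window. The count does not require the same end, for ZNF genes or for the other genes. The other genes shared 5 in this window, 5.88% and 8.62% of theirs, and 3 of them were shared between a control and a si-Uc003xsl.1 list.

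The genes with peaks were spread unevenly along the chromosome. Divided where neighbouring ZNF genes lie more than 1 Mb apart, the 250 genes formed 16 stretches. The last, from ZNF628 to ZNF446 near the end of the long arm, held 60 ZNF genes. Of these, 18 (30.0%) and 12 (20.0%) had a summit within 10 kb in the si-Uc003xsl.1 lists and 3 (5.0%) and 0 in the control lists. The 44 other protein-coding genes within the same stretch gave 20.5% and 15.9% in the si-Uc003xsl.1 lists and 0 in both control lists. The stretch held 6 of the 10 genes with a summit within 1 kb in si-Uc003xsl.1 replicate 1 and 5 of the 10 in replicate 2.

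Control replicate 1 had its highest shares among the large stretches elsewhere. The stretch from ZNF575 to ZNF296 had 6 of 24 genes (25.0%) in control replicate 1 and 1 (4.17%) and 2 (8.33%) in the si-Uc003xsl.1 lists. The stretch from ZNF565 to ZNF573 had 5 of 26 (19.2%) and then 2 (7.69%) in each si-Uc003xsl.1 list. Of the 27 other genes between ZNF575 and ZNF296, 0 were in control replicate 1, 0 in si-Uc003xsl.1 replicate 1 and 10 (37.0%) in replicate 2. Between ZNF565 and ZNF573 there were 4 other genes, of which 1 was in si-Uc003xsl.1 replicate 1 and none in the other lists. The 37 genes from ZNF101 to ZNF254, next to the centromere, had few peaks, at 1, 1, 4 and 1 genes in the 4 lists, and none of them had a summit within 1 kb of an end. The 41 genes from ZNF175 to ZNF331 had 5, 0, 6 and 5. Neighbouring genes can share a peak, so that genes of 1 stretch are not independent.

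**Figure D5:**
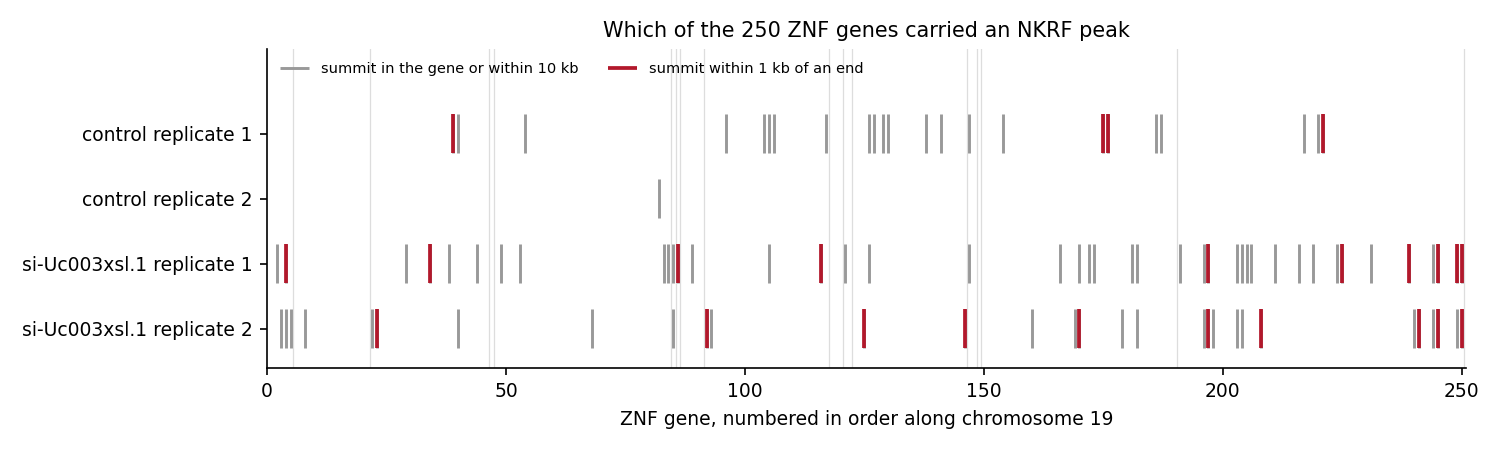
The 250 ZNF genes numbered in order along chromosome 19 (horizontal axis), with a line for each gene that had an NKRF summit in the gene or within 10 kb (grey) or within 1 kb of an end (red) in each list; pale lines divide the 16 stretches. The last stretch, of 60 genes, holds 18 and 12 marked genes in the si-Uc003xsl.1 lists, and control replicate 1 has most of its marks in the middle stretches.

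The partners through which KRAB zinc finger proteins silence DNA were examined as a list of 26 corepressor and heterochromatin genes of the whole genome. In the 10 kb window 2, 2, 4 and 3 of them had a summit in the 4 lists, 7.69%, 7.69%, 15.4% and 11.5%, with 11.8%, 2.58%, 23.0% and 17.2% as the background of all protein-coding genes. The median length was 42.6 kb for the listed genes and 24.1 kb for all protein-coding genes. TRIM28 itself, the main KRAB corepressor, lies on chromosome 19 beyond the last ZNF stretch. It had a peak of 31 tags over 444 bp (58554853 to 58555296) in si-Uc003xsl.1 replicate 1, with its summit 4274 bp from the gene and none in the other lists. In si-Uc003xsl.1 replicate 1 HDAC2 had a summit in its body, and SETDB1 and HDAC1 had summits 9909 and 2240 bp outside the gene. In replicate 2 DNMT3A and EHMT1 had summits in the body, and those of UHRF1 lay 6587 and 6499 bp outside the gene. NCOR1 was in both control lists, ATF7IP in control replicate 2 and SMARCAD1 in control replicate 1. No member of the list was in both si-Uc003xsl.1 lists.

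Other clustered families of chromosome 19 gave smaller shares in control replicate 1 than the 9.2% of ZNF genes, with wide intervals. Of 19 zinc finger genes with other symbols, none was in either control list, 7 (36.8%) were in si-Uc003xsl.1 replicate 1 and 2 (10.5%) in replicate 2. Those of both si-Uc003xsl.1 lists were ZFP28 and ZSCAN1. Of 20 olfactory receptor, 15 kallikrein, 22 CEACAM and PSG, and 37 KIR, LILR and SIGLEC genes, control replicate 1 had a summit within 10 kb of 1, 0, 1 and 1. These families are smaller than the ZNF family, and the difference from it was not tested.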

How the data were processed

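NKRF and input DNA of transfected MDA-MB-231-P3 cells were sequenced on the BGISEQ-500, per the labels' protocols. Bowtie2, CASAVA 1.4 and GRCh38.p11 are named in the submitters' processing notes, whose settings are not given in the sources used here. Each list was called on 1 library against 1 input, per the file headers. In the MACS 1.4.2 lists the deposited values are the count of tags per peak, a score (-10 log10 p), the fold enrichment ratio over input and the false discovery rate in percent. In the MACS 2.1.1.20160309 list they are the pileup signal, the fold enrichment ratio and the -log10 of the p-value and q-value, per the file headers. These values per peak are the authors' and were used only to describe or rank peaks within a list.

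Summits were matched to RefSeq genes (GRCh38.p14, used for names, spans and promoters) in Python 3.11.15 with pandas 2.3.3 and scipy 1.17.1, within 1 kb of either end, in the body, and in the gene or within 10 kb. The matching was checked on simulated summits placed at 200 of the 1451 genes, all of which were found. Promoters, with strand, were listed for 87.6% of the ZNF genes. Group differences were tested by exact two-sided permutation of the 4 libraries (3 splits), which measures only the spread between these libraries, possibly technical. Binomial intervals are Clopper-Pearson intervals and, like the 3-count limit on a share of 0, cover counting error only. The genes named are all those with a summit within 1 kb of an end, all in more than 1 list, and in each list the 5 with the highest -log10 p and the one with the longest peak; further genes of the wider windows are listed to account for them. The genes and lists were chosen with earlier results of these data known. Alternatives were any overlap of the peak, peaks above the list's median -log10 p, lists cut to equal length, 5 kb and 50 kb windows, each library left out and a replicate block. The gene body window, the density per Mb and the setting without each list's weakest peaks (by tags or pileup) were chosen after seeing the data. The 4 input libraries were not analysed here, and protein sequences were not used here.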

Additional observations from a re-analysis of the deposited data

Results flagged for a closer look

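The excess of ZNF genes over the other protein-coding genes of chromosome 19 in the share with a summit in the gene body had opposite signs in the 2 groups. It was 6.83 and 0.317 percentage points in control replicates 1 and 2 and -2.21 and -4.49 points in si-Uc003xsl.1 replicates 1 and 2. The difference between the groups gave an exact permutation p of 0.333, the smallest that 2 libraries against 2 allow. The value of control replicate 2 rests on 1 ZNF gene, ZNF681, and 1 other gene.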

How the results depend on the processing

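All 6 differences between groups (shares and excesses, 3 windows) kept their sign under every alternative run except the gene body share, and none can pass 0.05 in a design of 4 libraries. The body share differed by 3.4 points (exact permutation p = 0.667) and by -0.4 to 7.2 points when 1 library was left out, falling below 0 without control replicate 2. With the replicate block, whose numbers the labels do not tie to a shared culture or day, the differences stayed at 3.2, 9.6, -2.50, -9.59, 3.4 and -6.92 points, each with an exact p of 0.5. Leaving out 1 library gave 2.4 to 4.0 points for the 1 kb share, 5.2 (without control replicate 2) to 14 for the 10 kb share, -3.63 to -1.38 (without si-Uc003xsl.1 replicate 1) for the 1 kb excess, -12.8 to -6.36 (without control replicate 1) for the 10 kb excess and -10.2 to -3.67 (without control replicate 1) for the body excess. Lists of equal length brought the shares to 0.6 (1 kb), 1.2 (10 kb) and 0.6 (body) points and the excesses to -1.02, -3.30 and -1.56, and peaks above the list median gave shares of 1.0, 3.2 and 0.8. The 5 kb window gave 5.8 and -6.73 points for share and excess, and the 50 kb window 19.4 and -24.3. The count of ZNF genes in more than 1 list fell from 16 to 3 with peaks above the median and to 0 with equal lists, and ran from 1 (without si-Uc003xsl.1 replicate 1) to 16 when 1 library was left out (3 without si-Uc003xsl.1 replicate 2). Median tags and lengths were larger within 1 kb than in the 10 kb window, 26 and 16.5 tags and 469 and 368 bp in the si-Uc003xsl.1 lists. Without peaks at the smallest tag number the body excess differed by -4.91 points between the groups. In control replicate 1 that setting lowered the body share from 8.0% to 2.8% and the body excess from 6.83 to 2.30 points. The 10 kb share of control replicate 1 fell from 9.2% to 4.0%. With lists of equal length its body share was 0.4% and its body excess 0.317 points. Left out in turn, single libraries moved the log2 density ratio of the gene bodies between -3.62 and -2.75, and that of the 10 kb window, -1.69 with all libraries, between -2.52 and -0.86 (without control replicate 1). Control replicate 2 held 8 peaks on the chromosome, so its shares rest on few peaks; the part of depth was not tested.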
